A study of Mus musculus with 12 samples.

Results

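The question here was whether cardiomyocytes answer JV001 differently when they come from a diseased heart. For every gene, the JV001 response in the CKD model (CKD JV001 over CKD saline) was set against the JV001 response in sham-operated mice (sham JV001 over sham saline). The difference of these 2 log2 fold changes is the interaction of CKD and JV001. All 12 of the study's 12 libraries enter it, and 15004 of 22584 genes had enough reads to be tested. A positive value means that JV001 went with a higher level, relative to saline, in CKD than in sham. A negative value means the reverse.

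The CKD JV001 mice received AngII, a high salt diet and uninephrectomy for 12 weeks and were injected with JV001. The CKD saline mice had the same model and saline, with no duration stated. The sham JV001 and sham saline mice had a sham operation for 12 weeks. Every mouse was wild type, listed as C57BL6, and polyadenylated RNA came from cardiomyocytes isolated from the heart. Each group had 3 libraries. The labels do not say whether these came from separate animals, so each p-value reflects the spread among these libraries alone, and that spread may be technical. JV001 is a code name, and neither dose nor injection time is given. The series title speaks of gene therapy aimed at telomeres in a cardiorenal syndrome.

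AngII raises blood pressure and drives hypertrophy and fibrosis of the heart, and salt loading with the loss of a kidney adds to that strain. A working cardiomyocyte lives mainly on fatty acids, which it burns in its mitochondria, and failing hearts are known to lose part of that programme. Telomeres are the capped ends of chromosomes. Their loss of protection is known to switch on DNA damage signalling, and damaged DNA can in turn set off interferon and inflammatory genes.

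The libraries held 25.2 to 37.0 times 1e6 reads assigned to genes, and 18.8% to 38.5% of them fell on genes of the mitochondrial genome. All 13 ventricular cardiomyocyte markers were detected in every library, with a summed level of 32386 to 73195 CPM in CKD JV001, 65756 to 116476 CPM in CKD saline, 101261 to 110383 CPM in sham JV001 and 93266 to 126926 CPM in sham saline. CPM is reads per 1e6 reads after TMM scaling. The Y-linked genes Ddx3y, Uty, Kdm5d and Eif2s3y were read in every library and Xist had 0 to 4 reads. On the first principal component, which took 52.3% of the variance, library 3 of both CKD groups stood apart, with CKD JV001 library 3 at 138 and CKD saline library 3 at 62.5, against 48 and 50.3 for the other CKD JV001 libraries and -51.5 and -50.1 for the other CKD saline libraries. Library weights estimated by limma voom were 0.11 for CKD JV001 library 3, 0.2 for CKD saline library 3 and 0.473 for sham saline library 1, against 1.14 to 2.32 for the other 9. Values without 1 or more of these libraries are therefore also given below for many genes and lists. A value given only with all 12 libraries may still change without them.

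With all 12 libraries, no gene passed edgeR's interaction test. Its quasi-likelihood test with Benjamini-Hochberg adjustment called 0 of 15004 genes (0%), with a smallest adjusted p of 0.84. At an unadjusted p under 0.05 it listed 567 genes, 3.78% of those tested, of which 313 were positive (2.09%) and 254 negative (1.69%). DESeq2 called 2 genes (0.0135%) and limma voom with library weights 20 (0.133%), examples of which are named further on. With the replicate number as a block in the CKD groups only, edgeR called 0 genes and listed 2272 at an unadjusted p under 0.05. The interaction was positive in 49.9% of genes and negative in 50.1%, its median size was 0.364 log2 units, and its median standard error (SE) was 0.441 log2 units. On log2(FPKM + 1), which compresses genes of low level, 64.1% of genes were positive and the median of all genes was 0.114 log2 units, and with a pseudocount of 0.1 these were 63.2% and 0.137. Values below are on the counts, whose median over all genes was -0.00153. The sign was the same on the linear CPM scale in 95.4% of genes.

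The estimated JV001 log2 fold changes were spread more widely in CKD than in sham. Across the 15004 genes their SD was 0.875 in CKD and 0.586 in sham. An SD of estimates includes error, and library 3 stood apart from the others in both CKD groups. The part of error in the wider spread was not separated. edgeR listed 2707 genes (18.0%) at an unadjusted p under 0.05 for JV001 in CKD and 426 (2.84%) for JV001 in sham, and 0 after adjustment in either (0% each). An alternative chosen after seeing the data took the replicate number as a block in the CKD groups. With it edgeR called 3164 of 15004 genes for JV001 in CKD, with 5659 at an unadjusted p under 0.05. That block rests on a pairing that the labels do not state. The JV001 responses in CKD and in sham share no library. Their log2 fold changes correlated across genes with a Pearson r of 0.25 and a Spearman rho of 0.378, or 0.534 and 0.555 over the 7883 genes with a mean of at least 10 CPM and 0.172 and 0.342 without library 3 of both CKD groups. Genes are not independent replicates, so this is a description. JV001 and saline libraries stood apart in both settings, in opposite directions, in 51 genes (0.340%): 28 were higher with JV001 in CKD and lower with it in sham (0.187%), and 23 were the other way round (0.153%). In 68 genes both pairs stood apart with JV001 higher, and in 112 with JV001 lower.

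**Figure D1:**
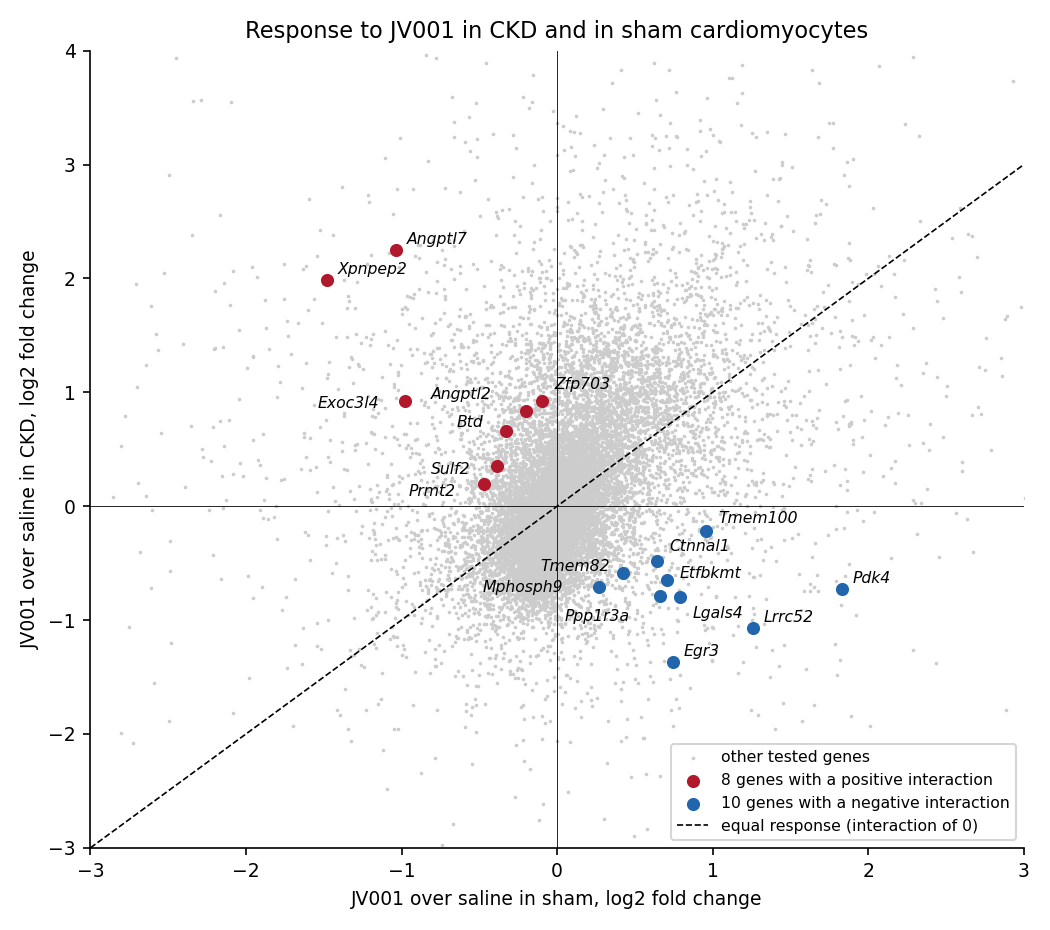
Each grey point is a gene, with its log2 fold change of JV001 over saline in sham on the horizontal axis and in CKD on the vertical axis; 135 genes lie outside the axes. The dashed line marks equal responses, the 8 red genes above it are those named with a positive interaction of small p, and the 10 blue genes below it have the negative interactions of smallest p.

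The genes with the clearest negative interaction were higher with JV001 in sham and lower with it in CKD. By the smallest unadjusted p among genes of at least 1 CPM they were Tmem100, Lgals4, Tmem82, Egr3, Lrrc52, Etfbkmt, Pdk4, Ctnnal1, Mphosph9 and Ppp1r3a. In all 10 the JV001 log2 fold change was positive in sham and negative in CKD. Their unadjusted p ran from 0.000339 to 0.00404 in edgeR's test, and each had an adjusted p of 0.84. Picking genes by p favours such patterns, so the list describes these libraries and is not a set of changed genes.

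Tmem100, a membrane protein known from endothelial BMP signalling, had 10.4, 9.34 and 10.2 CPM in CKD JV001 and 12.1, 13 and 9.77 CPM in CKD saline. It had 31.4, 22.7 and 27.7 CPM in sham JV001, against 14.6, 13.4 and 14.2 CPM in sham saline. The sham groups did not overlap and the CKD groups did, and the interaction of -1.18 (SE 0.23) was made of a JV001 log2 fold change of -0.22 in CKD and 0.96 in sham. It ranged from -1.30 to -1.07 when each library was left out in turn. Lgals4 encodes galectin-4, a lectin best known from gut epithelium. Its level was 26.2, 23.9 and 16.1 CPM in CKD JV001 and 35.8, 39.0 and 40.1 CPM in CKD saline, and 82.1, 79.8 and 69.4 CPM in sham JV001 against 28.6, 46.6 and 58.3 CPM in sham saline. Both pairs stood apart and in opposite directions, with an interaction of -1.59 (SE 0.35). Tmem82 had 8.55, 9.42 and 8.48 CPM in CKD JV001 and 13.4, 14.1 and 12.4 CPM in CKD saline, and its interaction was -1.02 (SE 0.24). It had 893, 635 and 819 reads in sham JV001 and 499, 689 and 693 reads in sham saline, so the sham groups overlapped.

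A second group of these genes handles fuel. Pdk4, the kinase that shuts pyruvate dehydrogenase and so spares glucose when fatty acids are burnt, had 156, 147 and 272 CPM in CKD JV001 and 358, 375 and 220 CPM in CKD saline. In sham JV001 it had 2287, 540 and 994 CPM, against 446, 404 and 221 CPM in sham saline. All sham JV001 libraries lay above all sham saline libraries, the CKD groups overlapped through their libraries 3, and the spread within sham JV001 was more than the whole range of the other groups. The interaction was -2.56 (SE 0.68), or -1.84 without sham JV001 library 1. Ppp1r3a, which brings protein phosphatase 1 to glycogen in striated muscle, had 46.8, 43.2 and 37.2 CPM in CKD JV001 and 91.0, 90.6 and 38.3 CPM in CKD saline. It had 135, 134 and 134 CPM in sham JV001, against 64.4, 90.2 and 99.8 CPM in sham saline. CKD saline library 3 alone brought the CKD groups into overlap, and the interaction of -1.45 (SE 0.40) became -1.71 without library 3 of both CKD groups. Etfbkmt, a mitochondrial enzyme that methylates the electron carrier ETFB, had 12.6, 11.4 and 7.72 CPM in CKD JV001, 19.3, 19.1 and 11.3 CPM in CKD saline, 24.3, 22.0 and 22.5 CPM in sham JV001 and 12.7, 12.5 and 17.0 CPM in sham saline. Its interaction was -1.35 (SE 0.34).

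Egr3, an immediate early transcription factor, had its highest level in CKD saline. It had 6.14, 7.9 and 3.35 CPM in CKD JV001 and 12.6, 11.8 and 20.5 CPM in CKD saline, with no overlap. In sham JV001 it had 3.77, 4.49 and 2.42 CPM, against 1.99, 2.78 and 1.58 CPM in sham saline, where the groups overlapped. The interaction was -2.12 (SE 0.53). Lrrc52, an auxiliary subunit of potassium channels, had about 1 CPM or a few CPM throughout and an interaction of -2.33 (SE 0.58). The remaining genes were Ctnnal1, an alpha-catenin relative, at -1.12 (SE 0.31), and Mphosph9, a centrosome protein, at -0.98 (SE 0.27).

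Among the 10 genes with the clearest positive interaction were Xpnpep2, Angptl7, Angptl2, Zfp703, Exoc3l4, Btd, Sulf2 and Prmt2. In all 10 the JV001 log2 fold change was positive in CKD and negative in sham. Their unadjusted p ran from 0.00052 to 0.00586 in edgeR's test, with an adjusted p of 0.84 each. CKD JV001 and CKD saline stood apart in 9 of them, sham JV001 and sham saline in 5, and both in 4 (Xpnpep2, Exoc3l4, Sulf2 and Prmt2). Among the negative genes the counts were 4, 7 and 1. Over all genes, CKD JV001 stood above CKD saline in 8.22% and below it in 6.04%, and sham JV001 above sham saline in 5.69% and below it in 6.71%. The counts of named genes follow from choosing by p and are a description.

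Angptl2, a secreted angiopoietin-like protein, had 92.3, 93.8 and 117 CPM in CKD JV001 and 49.2, 51.9 and 68.9 CPM in CKD saline, against 42.0, 50 and 39.3 CPM in sham JV001 and 58.6, 42.7 and 49.3 CPM in sham saline. The CKD groups stood apart and the sham groups overlapped, and the interaction was 1.03 (SE 0.26). Angptl7, of the same family, was 5.22, 3.55 and 2.91 CPM in CKD JV001 and 0.555, 0.594 and 1.31 CPM in CKD saline, with 0.68, 0.449 and 0.242 CPM in sham JV001 and 1.41, 0.53 and 0.881 CPM in sham saline. Its reads were few, from 8 to 165 per library, and its interaction was 3.28 (SE 0.75).

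Xpnpep2, a membrane aminopeptidase that cleaves bradykinin, had the smallest p of the positive genes on few reads, from 9 to 94 per library. Its level was 2.15, 2.23 and 1.09 CPM in CKD JV001 and 0.481, 0.528 and 0.357 CPM in CKD saline, and 0.866, 0.449 and 0.606 CPM in sham JV001 against 3.02, 1.22 and 1.14 CPM in sham saline. Neither pair overlapped, and the interaction of 3.47 (SE 0.72) was 2.89 without sham saline library 1. Sulf2, a secreted enzyme that trims sulphate from heparan sulphate, showed the same crossing at a higher level. It had 50.6, 46.1 and 47.8 CPM in CKD JV001 and 34.1, 36.2 and 42.8 CPM in CKD saline, and 33.8, 46.1 and 35.0 CPM in sham JV001 against 47.0, 49.2 and 53.7 CPM in sham saline. The interaction was 0.74 (SE 0.22), a smaller value than that of Xpnpep2 with a smaller error.

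Of the other positive genes, Prmt2, an arginine methyltransferase, had 14.4, 15.0 and 13.5 CPM in CKD JV001 and 12.9, 12.3 and 12.1 CPM in CKD saline, and 10.7, 9.9 and 9.51 CPM in sham JV001 against 13.8, 15.5 and 12.4 CPM in sham saline. Its interaction of 0.67 (SE 0.20) rested more on sham, where JV001 was 0.47 log2 units lower, than on CKD, where it was 0.20 higher. The interactions of Exoc3l4, Zfp703 and Btd, which is biotinidase and recycles biotin, were 1.90 (SE 0.50), 1.02 (SE 0.26) and 0.99 (SE 0.29). All 20 genes kept their sign under every setting tried and with each library left out, which choosing genes by a small p favours.

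**Figure D2:**
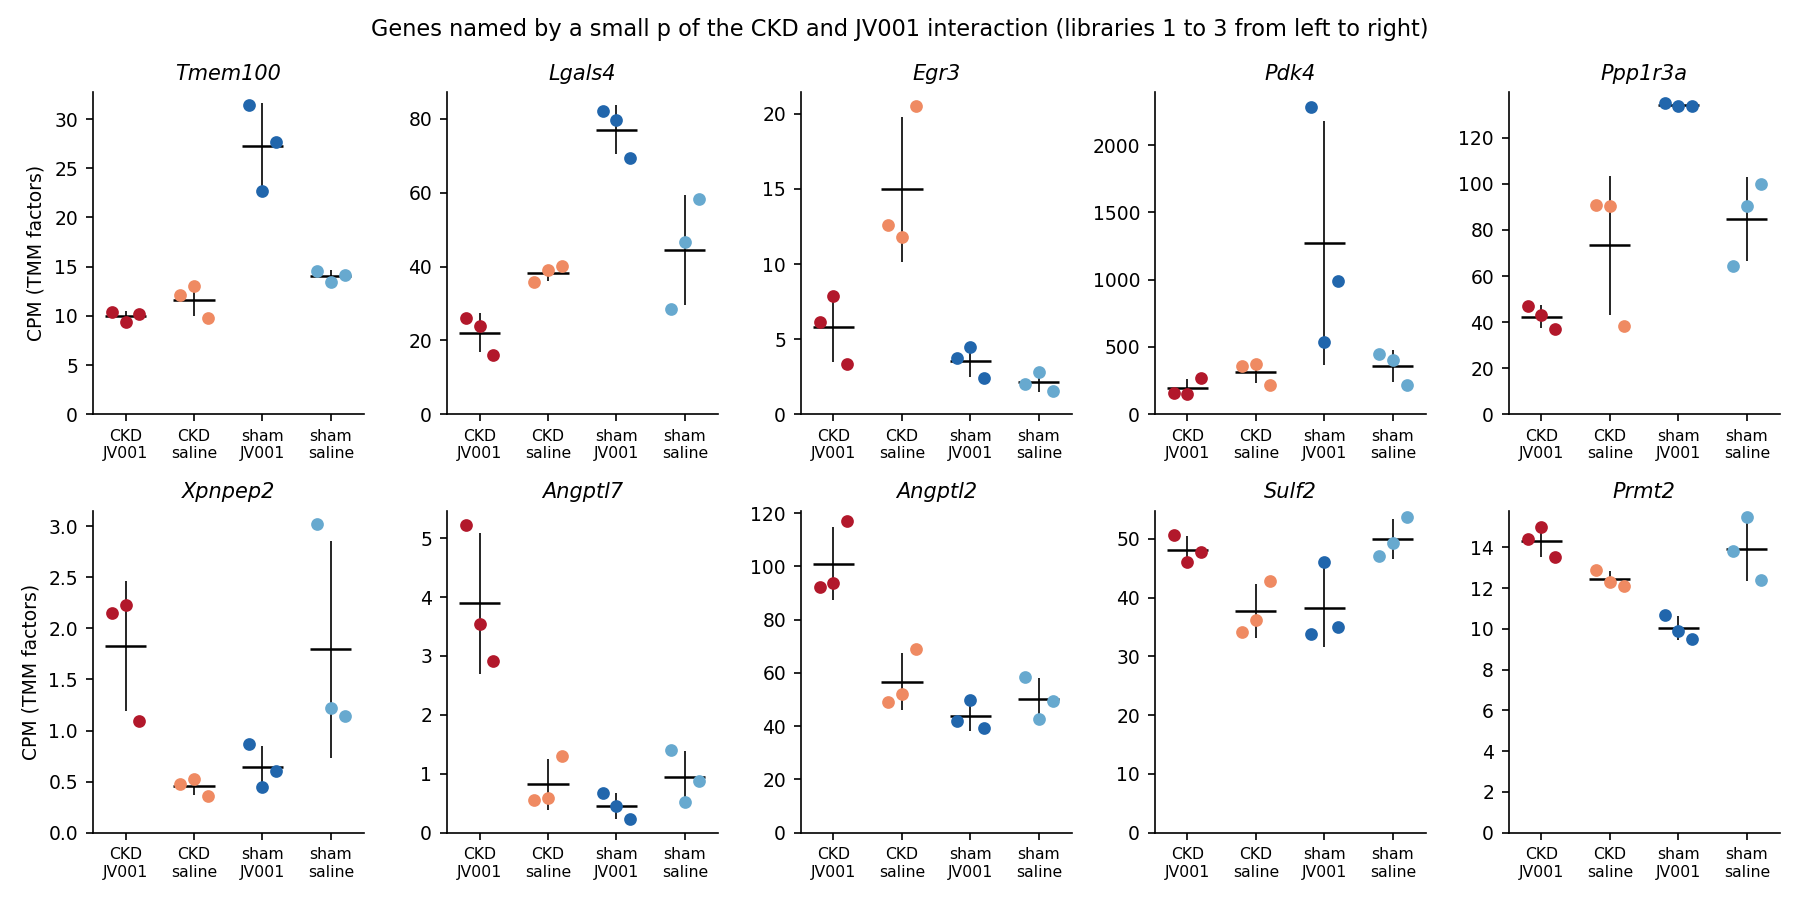
Points are single libraries in CPM for 5 genes with a negative interaction (top) and 5 with a positive one (bottom); horizontal bars are group means and vertical lines are SD (n = 3). Tmem100, Lgals4, Pdk4 and Ppp1r3a were higher with JV001 in sham and not in CKD, whereas Angptl7 and Angptl2 were higher with JV001 in CKD and not in sham.

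Interferon-stimulated genes, the genes that cells switch on after sensing virus or misplaced DNA, had positive interactions throughout. All 46 tested members of 49 were positive, against 49.9% of all genes, with a median of 1.62 log2 units. In edgeR's test 0 passed after adjustment, and 7 of the 46 had an unadjusted p under 0.05, beside 2.09% of all genes in that direction. The median JV001 log2 fold change was 2.30 in CKD and 0.75 in sham. The list's mean level was 3.85, 3.83 and 6.72 log2 CPM in CKD JV001, 2.43, 2.49 and 3.73 in CKD saline, 3.62, 3.25 and 2.22 in sham JV001 and 2.92, 2.27 and 1.96 in sham saline. CKD JV001 library 3 thus stood far above every other library. Without it the median interaction was 0.09 with 26 of 46 positive, and without library 3 of both CKD groups it was 0.65 with 42 of 46 positive. Weighting libraries in limma voom gave 0.49.

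Cxcl10, a chemokine that draws T cells, showed that dependence most sharply of the named members. It had 2.44, 1.3 and 220 CPM in CKD JV001 and 0.444, 0.429 and 0.953 CPM in CKD saline, with 2.66, 2.24 and 0.0303 CPM in sham JV001 and 0.675, 0.928 and 0.855 CPM in sham saline. Its interaction was 5.94 (SE 2.37, unadjusted p 0.0289 in edgeR's test) with all libraries and 0.62 without CKD JV001 library 3. Igtp, a GTPase induced by interferon gamma, had 26.3, 25.5 and 182 CPM in CKD JV001 and 16.9, 17.1 and 21.7 CPM in CKD saline, and 19.7, 16.2 and 10.4 CPM in sham JV001 against 16.6, 16.1 and 16.0 CPM in sham saline. CKD JV001 lay above CKD saline in every library of both genes, and the sham groups overlapped. The interaction of Igtp was 2.14 (SE 0.88), or 0.55 without CKD JV001 library 3. Dhx58, an RNA sensor of the RIG-I family, had 1.98 (SE 0.85), or 0.84 without it.

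The promoters of Cxcl10 and Igtp are shown because both hold the interferon-stimulated response element, searched as GAAA, any 2 bases and GAAA again on both strands in the window from 250 bases before to 50 bases after the gene start (RefSeq, GRCm38.p6). Cxcl10 lies on the minus strand at chr5:92348840-92349139 and Igtp on the plus strand at chr11:58199306-58199605. Capitals mark the motif, which starts 213 bases before the gene start in Cxcl10 and 34 bases before it in Igtp.
Cxcl10: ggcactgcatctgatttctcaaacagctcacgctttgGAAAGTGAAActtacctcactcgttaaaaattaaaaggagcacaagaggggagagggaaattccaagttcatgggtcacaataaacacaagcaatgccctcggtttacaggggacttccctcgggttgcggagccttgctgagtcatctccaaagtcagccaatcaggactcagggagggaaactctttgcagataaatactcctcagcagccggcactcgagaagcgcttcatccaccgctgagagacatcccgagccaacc
Igtp: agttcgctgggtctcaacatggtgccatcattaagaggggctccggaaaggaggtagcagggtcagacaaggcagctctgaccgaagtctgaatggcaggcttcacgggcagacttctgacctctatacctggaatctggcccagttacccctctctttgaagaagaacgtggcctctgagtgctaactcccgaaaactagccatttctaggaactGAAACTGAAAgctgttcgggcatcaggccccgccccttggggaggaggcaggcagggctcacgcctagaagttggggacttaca
Of the 46 interferon genes, 36 had a listed promoter and 21 of these held the motif (58.3%). The motif was held by 442 of 11822 tested genes with a promoter (3.74%), and by 1079 of all 27025 genes with one (3.99%). The list was written from genes known to answer interferon, so its motif share says nothing about these libraries. The median interaction was 1.77 in the 21 with the motif and 1.47 in the 15 without it. Both medians include CKD JV001 library 3, without which the median of the whole list was 0.09. A match is a stretch of letters and no measured binding.

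Genes of inflammation and chemokine signalling followed the same libraries. All 30 tested members of 32 were positive, with a median of 1.76, and 3 had an unadjusted p under 0.05 in edgeR's test, where all genes had 49.9% positive and 2.09% positive with such a p. Bcl3, a regulator of NF-kB, had 6.27, 6.63 and 169 CPM in CKD JV001 and 3.11, 0.891 and 9.26 CPM in CKD saline, with 2.6, 2.5 and 2.64 CPM in sham JV001 and 4.63, 1.22 and 2.8 CPM in sham saline. Its interaction was 3.94 (SE 1.67), and 0.71 without CKD JV001 library 3. Relb, an NF-kB subunit, had 2.77 (SE 1.05), and Ccl3, a chemokine for monocytes and neutrophils, had 3.77 (SE 1.69). The list's median was 0.02 without CKD JV001 library 3 and 0.74 without library 3 of both CKD groups, and 0.50 with library weights in limma voom. Antigen presentation genes had a median of 0.79, with 14 of 14 positive. Their leading member Tap1, the peptide pump that loads MHC class I, had 2.15 (SE 0.93). Without CKD JV001 library 3 the values of Relb, Ccl3 and Tap1 were 0.81, 1.76 and 0.87, and without sham saline library 1 the antigen presentation median was 0.28.

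Markers of neutrophils and macrophages were high in the same libraries. The 9 tested neutrophil markers of 13 summed to 21.4 to 346 CPM in CKD JV001, 5.44 to 84.0 CPM in CKD saline, 4.45 to 8.27 CPM in sham JV001 and 0.907 to 62.1 CPM in sham saline. S100a8, Retnlg, Mmp8, Cxcr2, Ngp and Ltf had 0 reads in at least 1 library. The 346 CPM belonged to CKD JV001 library 3, and the list's median interaction of 1.34 was -1.0 without it, 4.0 with CKD saline library 3 left out instead and 1.73 with library 3 of both CKD groups left out. The 14 macrophage markers summed to 571 to 1079 CPM in CKD JV001, 111 to 560 CPM in CKD saline, 90.4 to 303 CPM in sham JV001 and 43.7 to 201 CPM in sham saline, with a median interaction of 0.75, or 0.24 without CKD JV001 library 3. Leaving out CKD saline library 3 gave 1.87, and leaving out library 3 of both CKD groups gave 1.38. Their part in the interferon and inflammation values was not tested. In bulk RNA, fewer cells of a type and less RNA per cell cannot be told apart.

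Extracellular matrix genes had positive interactions with and without CKD JV001 library 3. Of 41 tested members 38 were positive, with a median of 1.06, and 1 had an unadjusted p under 0.05 in edgeR's test, Ltbp2, a share near the 2.09% of all genes in that direction. The median JV001 log2 fold change was 1.2 in CKD and 0.15 in sham. The mean level was 5.41, 5.48 and 6.03 log2 CPM in CKD JV001, 3.58, 3.63 and 5.53 in CKD saline, 4.15, 4.48 and 3.80 in sham JV001 and 4.57, 3.89 and 3.29 in sham saline. CKD saline library 3 sat with the CKD JV001 libraries. The median was 1.80 without library 3 of both CKD groups, 0.80 without CKD JV001 library 3 and 0.57 without sham saline library 1.

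Ltbp2, a matrix protein that binds fibrillin microfibrils, had 23.7, 24.7 and 13.6 CPM in CKD JV001 and 3.85, 3.69 and 13 CPM in CKD saline. It had 1.3, 1.85 and 2.21 CPM in sham JV001, against 3.28, 2.04 and 2.05 CPM in sham saline. CKD JV001 lay above CKD saline in each library, though library 3 of each group differed little, and the sham groups overlapped. Its interaction was 2.05 (SE 0.67, unadjusted p 0.0108 in edgeR's test) and 3.10 without library 3 of both CKD groups. Postn, periostin of activated fibroblasts, had 58.3, 64.9 and 72.1 CPM in CKD JV001 and 12.4, 11 and 49.7 CPM in CKD saline, with 16.7, 16.4 and 12.2 CPM in sham JV001 and 17.0, 12.4 and 9.28 CPM in sham saline. Its interaction was 1.19 (SE 0.68), and 2.13 without those libraries. Col1a1 and Col3a1, the main fibrillar collagens, had 1.38 (SE 0.86) and 1.57 (SE 0.90), or 2.44 and 2.60 without them. Without sham saline library 1 the collagens had 0.82 and 0.87.

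Fibroblast markers, several of them matrix genes too, were high in the same libraries. All 13 were tested, 12 were positive and the median was 1.03, or 0.61 without sham saline library 1. They summed to 3087 to 4065 CPM in CKD JV001, 679 to 2658 CPM in CKD saline, 661 to 1389 CPM in sham JV001 and 327 to 1247 CPM in sham saline, and none was at 0 reads in any library. The 2658 CPM belonged to CKD saline library 3. Endothelial markers had a median interaction of 0.06 with 7 of 13 positive, or 0.85 without library 3 of both CKD groups and -0.61 without sham saline library 1. Epicardial and mesothelial markers had a median of 2.14 with 9 of 9 positive, and atrial markers 1.45 with 10 of 12 positive. Both were smaller without sham saline library 1, at 0.44 and 0.56. The 9 epicardial markers summed to 71.0 to 104 CPM in CKD JV001 and 23.0 to 54.5 CPM in CKD saline, and to 150 CPM in sham saline library 1 against 16.5 to 76.5 CPM in the other sham libraries. Of the atrial markers, Bmp10 had 0 reads in at least 1 library. The part of these cell types in the matrix values was not tested.

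Genes of contraction and of energy supply had negative interactions almost without exception, though few single genes had a small p. Of 28 contractile and calcium handling genes 27 were negative, with a median of -0.65. The mean level was 10.31, 10.32 and 9.10 log2 CPM in CKD JV001, 10.96, 10.95 and 10.10 in CKD saline, 10.82, 10.70 and 10.90 in sham JV001 and 10.59, 11.12 and 11.03 in sham saline. Within CKD the JV001 libraries 1 and 2 lay below saline libraries 1 and 2, and library 3 of each CKD group lay below libraries 1 and 2 of that group. The median stayed negative with each library left out, from -0.90 to -0.34 (without CKD JV001 library 3), and was -0.59 without library 3 of both CKD groups. No member had an unadjusted p under 0.05 in edgeR's test, and 0 passed after adjustment. Over all genes 50.1% were negative, and 1.69% were negative with an unadjusted p under 0.05 in that test.

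Ryr2, the calcium release channel of the sarcoplasmic reticulum, had 863, 1015 and 543 CPM in CKD JV001 and 1755, 1787 and 905 CPM in CKD saline, against 2090, 1955 and 1837 CPM in sham JV001 and 1951, 2163 and 2242 CPM in sham saline. Its interaction was -0.77 (SE 0.40), from a JV001 log2 fold change of -0.88 in CKD and -0.11 in sham. Ttn, the giant sarcomere spring titin, had -0.80 (SE 0.44), and Cacna1c, the L-type calcium channel, -0.74 (SE 0.38). Ventricular markers, all 13 negative with a median of -0.64 (-0.33 without CKD JV001 library 3), had the same direction, and several of them also belong to the contractile list. Whether cardiomyocytes made less of these RNAs or made up less of the sample cannot be told apart.

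Mitochondrial pathways ran alongside. All 43 tested nuclear genes of the respiratory chain were negative, with a median of -0.56 and a range from -0.73 to -0.30. All 14 citric acid cycle genes were negative, with a median of -0.63. Of 32 fatty acid genes 28 were negative with a median of -0.64, and 3 had an unadjusted p under 0.05 in edgeR's test (Pdk4, Acot2 and Lpl), beside 1.69% of all genes in that direction. Acot2, a mitochondrial thioesterase, had 39.5, 40.6 and 21.0 CPM in CKD JV001 and 64.4, 76.0 and 45.0 CPM in CKD saline, and 85.2, 71.0 and 67.4 CPM in sham JV001 against 58.6, 75.4 and 81.2 CPM in sham saline. Its interaction was -0.93 (SE 0.37). Lpl, the lipase that frees fatty acids from lipoproteins, had -0.75 (SE 0.34). For both, CKD JV001 and CKD saline stood apart and the sham groups overlapped. Without CKD JV001 library 3 the medians of the respiratory chain, citric acid cycle and fatty acid lists were -0.28, -0.35 and -0.36. Glycolysis and glucose genes had a median of -0.50, with 26 of 27 negative, and -0.21 without CKD JV001 library 3. The exception with all libraries was Pfkfb3, a driver of glycolysis, at 3.92 (SE 1.60), or 0.15 without CKD JV001 library 3.

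Regulators of mitochondrial genes shared the direction. Of 17 metabolic regulators 14 were negative, with a median of -0.39 (-0.19 without CKD JV001 library 3), and 2 had an unadjusted p under 0.05 in edgeR's test, where all genes had 50.1% negative and 1.69% negative with such a p. Ppargc1a, the coactivator that drives mitochondrial biogenesis, had 39.1, 41.9 and 32.4 CPM in CKD JV001 and 74.5, 79.5 and 39.4 CPM in CKD saline, with 200, 91.7 and 101 CPM in sham JV001 and 100, 97.2 and 80.6 CPM in sham saline. Its interaction was -1.27 (SE 0.45, unadjusted p 0.0162 in edgeR's test), and -0.84 without sham JV001 library 1, the one at 200 CPM. Ppara, the nuclear receptor for fatty acid genes, had 41.9, 46.9 and 29.6 CPM in CKD JV001 and 81.3, 87.7 and 43.3 CPM in CKD saline, against 108, 105 and 103 CPM in sham JV001 and 86.2, 102 and 114 CPM in sham saline. CKD saline library 3 was the library that made the CKD groups overlap. The interaction of Ppara was -0.91 (SE 0.36, unadjusted p 0.0269 in edgeR's test).

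**Figure D3:**
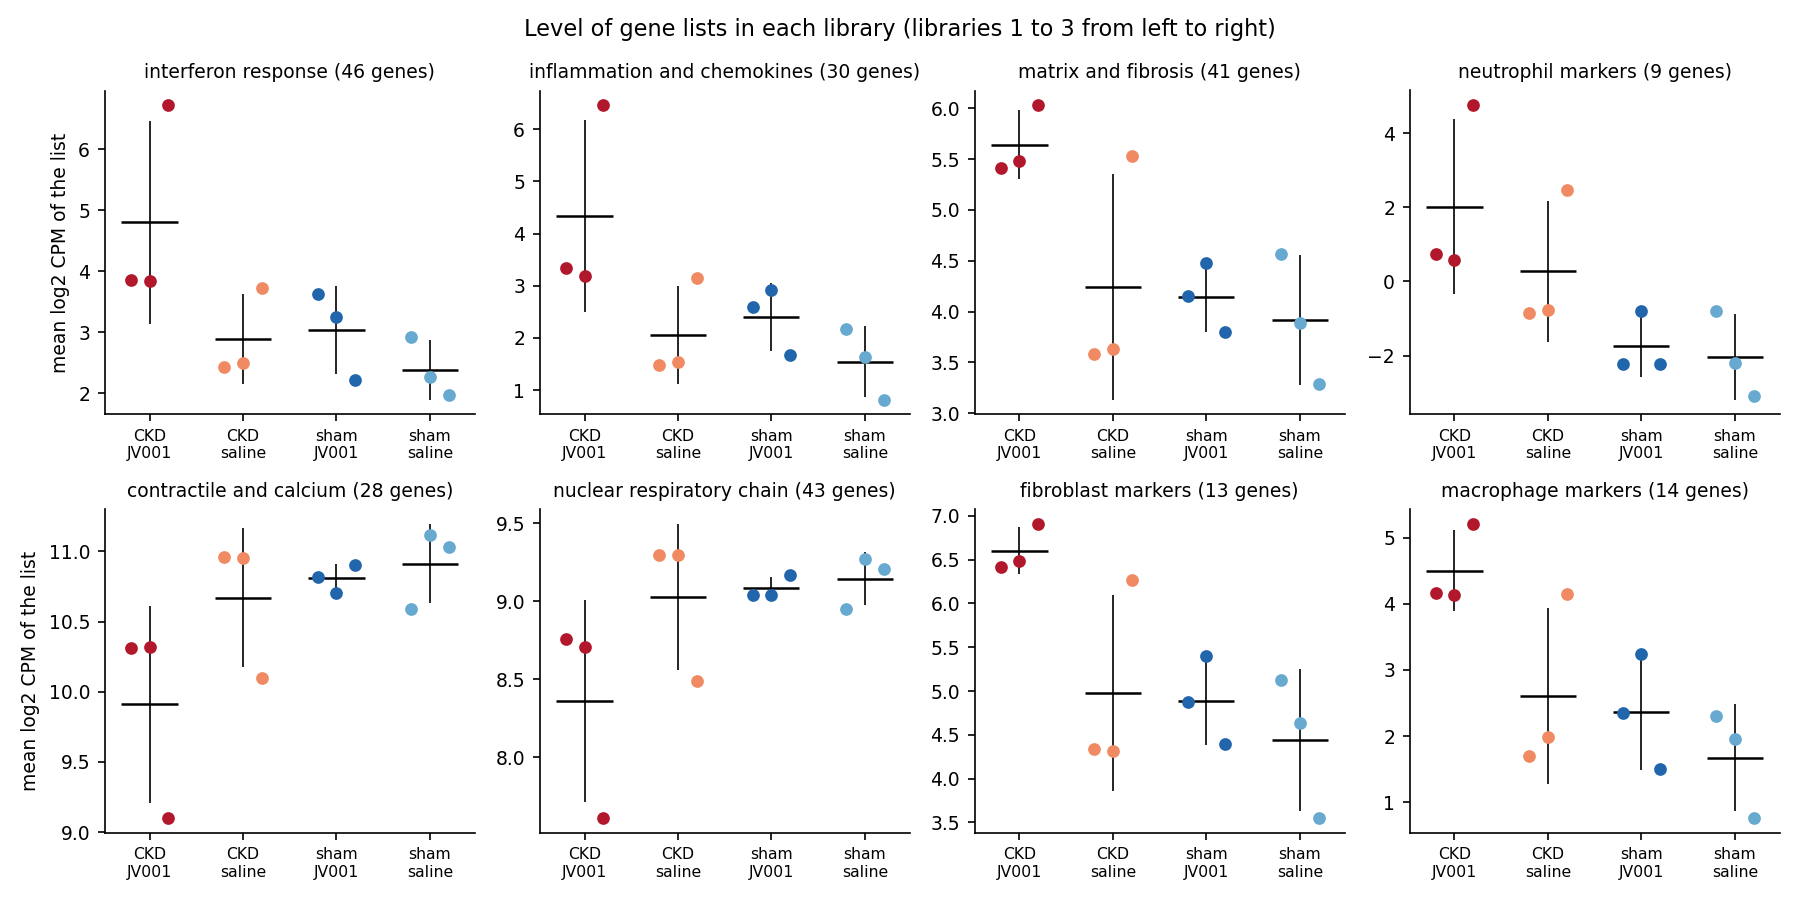
Mean log2 CPM of 8 gene lists in every library (points), with group means (horizontal bars) and SD (vertical lines, n = 3); vertical axes do not start at 0. CKD JV001 library 3 is the highest for interferon, inflammation and neutrophil genes and the lowest for contractile and respiratory chain genes, and CKD saline library 3 lies near the CKD JV001 libraries for matrix and fibroblast genes.

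**Figure D4:**
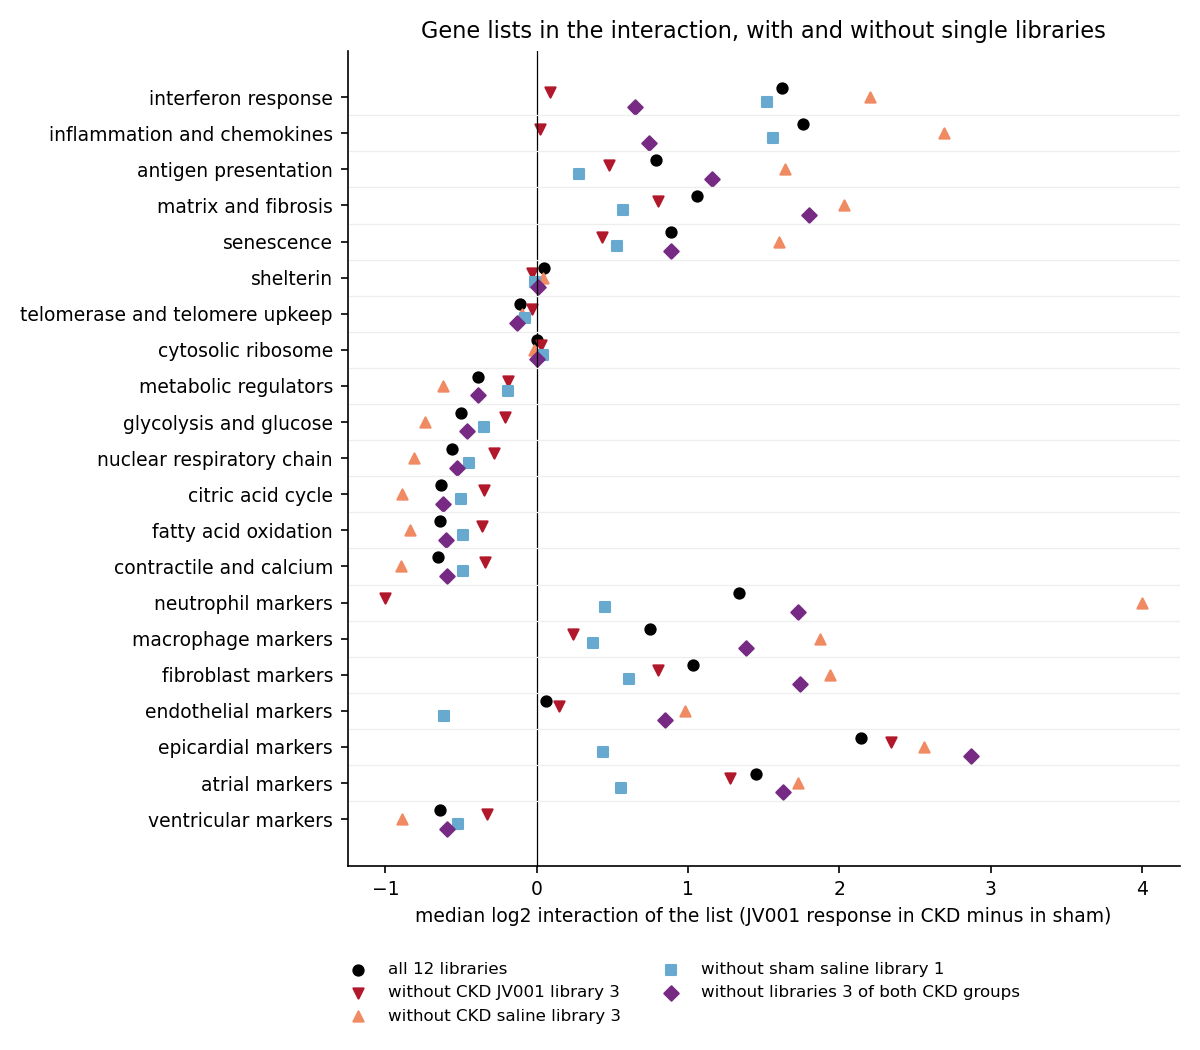
Median log2 interaction of 21 gene lists with all 12 libraries (black) and after leaving out single libraries or library 3 of both CKD groups (colours). Contractile and mitochondrial lists stay left of 0 in every case, matrix and fibroblast lists stay right of it, and the interferon and inflammation lists come close to 0 without CKD JV001 library 3.

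Other lists held single genes of interest. DNA damage and p53 genes had a median of -0.02 with 12 of 27 positive, against 49.9% of all genes. With each library left out the median ran from -0.18 to 0.09. In edgeR's test 0 of them were positive with an unadjusted p under 0.05, beside 2.09% of all genes. Sesn1, at -0.93 (SE 0.37), was the 1 negative gene with such a p, beside 1.69% of all genes. The senescence list had a median of 0.89 with 22 of 24 positive, and its leading gene Igfbp5, a secreted IGF binding protein, had 266, 275 and 267 CPM in CKD JV001 and 110, 115 and 199 CPM in CKD saline, with 109, 202 and 139 CPM in sham JV001 and 292, 106 and 139 CPM in sham saline. Its interaction was 1.18 (SE 0.52), and 0.65 without sham saline library 1, while the list's median was 0.43 without CKD JV001 library 3. The senescence list was written with Il6, Ccl2 and Cxcl1, also in the inflammation list, and Timp1 and Tgfb2, also in the matrix list. It is thus not separate from those lists, and 49.9% of all genes were positive. Nr1d1, the clock repressor REV-ERB alpha, had 133, 132 and 141 CPM in CKD JV001 and 57.7, 65.6 and 102 CPM in CKD saline, against 58.3, 61.3 and 35.0 CPM in sham JV001 and 47.7, 60.2 and 59.7 CPM in sham saline. CKD JV001 stood above all other groups for Nr1d1, with an interaction of 0.96 (SE 0.35, unadjusted p 0.0178 in edgeR's test). The hour at which hearts were taken is not given in the sources used here. Among antioxidant genes, with a median of -0.17, Gclm and Srxn1 of the glutathione and peroxiredoxin systems had -0.75 (SE 0.25) and -0.68 (SE 0.27). Kcnj2, the inward rectifier potassium channel, had -1.03 (SE 0.44), and Cacna1h, a T-type calcium channel, 1.54 (SE 0.56). Cytosolic ribosome genes centred on 0, with 15 of 30 positive and a range from -0.26 to 0.49, while on log2(FPKM + 1) 29 of 30 were positive with a median of 0.18, beside 64.1% and 0.114 over all genes.

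No tested gene of the shelterin and telomerase lists had an unadjusted p under 0.05 for the interaction in edgeR's test. Over all tested genes the share at such a p was 3.78%, so 0 in lists of this size is near that share. The 7 shelterin genes, which cap the chromosome end, ran from -0.28 to 0.40, with 4 positive and a median of 0.05, and 0 had an unadjusted p under 0.05 in edgeR's test. Terf2ip, the RAP1 subunit, was the one nearest to it, at -0.28 (SE 0.19, unadjusted p 0.166 in edgeR's test). It had 15.3, 13.2 and 15.3 CPM in CKD JV001 and 17.4, 16.8 and 17.1 CPM in CKD saline, which did not overlap, and 18.6, 15.6 and 16.4 CPM in sham JV001 against 15.5, 17.5 and 15.8 CPM in sham saline, which did. Pot1b, Acd, Tinf2 and Pot1a had 0.40 (SE 0.49), 0.10 (SE 0.35), -0.04 (SE 0.27) and -0.14 (SE 0.27), and of the 7 only Terf2ip had the same sign under every setting tried. Terf1 and Terf2, the subunits that bind double-stranded telomeric DNA, had 0.37 (SE 0.60) and 0.05 (SE 0.20). A p that misses the threshold does not show that the responses were alike, and the errors of Terf1 and Pot1b leave room for interactions of the size of those named above. Tert, the telomerase enzyme, had 0, 0 and 0 reads in CKD JV001, 0, 0 and 3 in CKD saline, 6, 0 and 0 in sham JV001 and 3, 1 and 4 in sham saline, too few to test. Of 23 telomerase and telomere upkeep genes 8 were positive with a median of -0.11, or 0.06 on log2(FPKM + 1), where the median of all genes was 0.114. The leading one was Wrn, the helicase lost in Werner syndrome, at 1.18 (SE 0.55, unadjusted p 0.0546 in edgeR's test). Its interaction was 1.78 without CKD saline library 3 and 0.83 without sham saline library 1.

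How many genes passed depended on the libraries and the tool. DESeq2's Wald test on all 12 libraries called Xpnpep2 (3.47) and Tmem100 (-1.17), each with an adjusted p of 0.034. limma voom with library weights called 20 genes, 10 in each direction. They included Ppp1r3a (-1.55), Etfbkmt (-1.32), Pdk4 (-3.0), Angptl2 (0.99) and the matrix genes Ltbp2 (2.90), Thbs4 (2.68), Cilp (2.96) and Postn (1.89), and 8 of the 20 were among the genes named above by p. Leaving library 3 out of every group, edgeR called 11 genes (0.0729%). Among these were the heat shock genes Hspa1b (3.18) and Hspa1a (2.63), the hormone-responsive factor Zbtb16 (-3.14), Postn (2.17) and Ltbp2 (3.37). With all libraries the interactions of Hspa1b, Hspa1a and Zbtb16 were 2.92, 1.84 and -0.84, and without CKD JV001 library 3 alone 0.30, 0.37 and -2.30. Hspa1a and Hspa1b are near-identical copies whose reads may be split uncertainly. Leaving out library 3 of both CKD groups alone, edgeR called 0, with 2945 genes at an unadjusted p under 0.05. These genes were named after their values were seen.

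The largest count came without sham saline library 1 and library 3 of both CKD groups, a choice made after seeing the data. edgeR then called 272 of 15178 genes (1.79%), 81 positive and 191 negative, of which 10 were among the 20 named by p. By list, 15 were fatty acid genes of 32 tested, 11 nuclear respiratory chain genes of 43, 10 citric acid cycle genes of 14, 9 contractile and calcium handling genes of 28 and 9 matrix genes of 41, while 0 were among the 46 interferon or 30 inflammation genes. The contractile ones included Myh6, the main myosin of the adult mouse heart (-0.55, adjusted p 0.00897), and Atp2a2, the calcium pump of the sarcoplasmic reticulum (-0.54, adjusted p 0.0165). Ppara (-0.91, adjusted p 0.0165) and the fatty acid enzymes Hadha (-0.56, adjusted p 0.0206) and Acadm (-0.57, adjusted p 0.0286) also passed, as did Thbs4 (2.91, adjusted p 0.00516) and Fn1, fibronectin (1.32, adjusted p 0.0238). Dropping the 3 libraries that vary most lowers the estimated spread by construction, so these calls describe the remaining 9 libraries and not the full design. Each CKD group and sham saline then has 2 libraries.

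**Figure D5:**
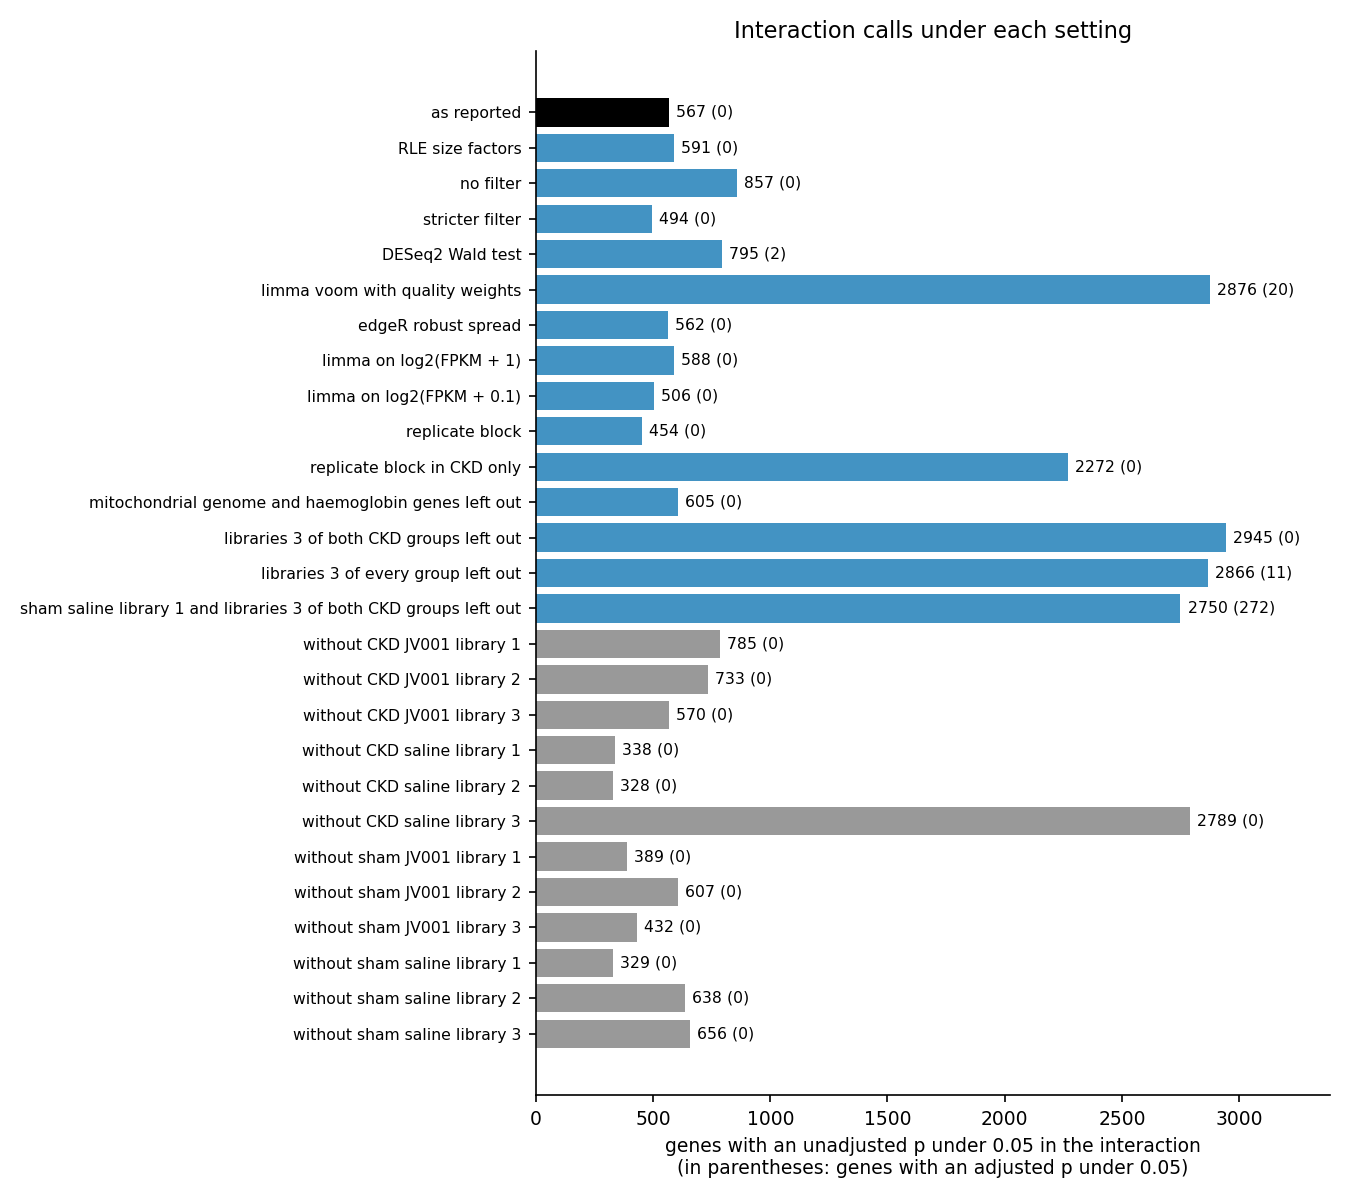
Bars give the number of genes with an unadjusted p under 0.05 in the interaction under each setting, from 567 as reported (black), for other methods and sets of libraries (blue) and with 1 library left out (grey). Numbers in parentheses are genes passing after adjustment, which are 0 except for DESeq2 (2), limma voom with weights (20), library 3 of every group left out (11) and sham saline library 1 with library 3 of both CKD groups left out (272).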

How the data were processed

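Reads of 12 libraries of polyadenylated mouse cardiomyocyte RNA had been trimmed, aligned and counted by the authors with fastp, HISAT2 and HTSeq on GRCm39, per the submitters' processing notes, which list no versions. The deposited table holds raw counts of 22584 genes in 12 libraries. A second deposited table holds FPKM values made by the authors, which in 10249 genes of at least 50 reads followed from the counts and 1 length per gene to within a relative range of 1.44e-08.

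The columns headed C were read as CKD saline. Counts were analysed with edgeR 4.0.16 (R 4.3.3): TMM scaling, filterByExpr with a minimum count of 10, a mean per group, the quasi-likelihood F test and Benjamini-Hochberg adjustment over 15004 genes at a threshold of 0.05. CPM is per 1e6 TMM-scaled reads, and list levels are means of log2 CPM with a prior count of 2. Promoters were read from RefSeq's table in Python 3.11.15. limma 3.58.1, DESeq2 1.42.0, log2(FPKM + 1), other scalings and filters, a replicate block and left-out libraries were the alternatives.

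Genes were named by rule: those past the adjusted threshold (0), the 10 positive and 10 negative of smallest p with a mean of at least 1 CPM and a gene symbol of known type, up to 3 per gene list by p, and all shelterin genes. Genes withheld from print, 2 of the positive ones, are not reported here. The members, the 42 gene lists (27 pathway and 15 marker lists) and the tests were chosen with earlier results of these data known. Leaving out sham saline library 1 with library 3 of both CKD groups, and the replicate block within CKD only, were chosen after seeing the data. The labels do not say what a replicate number marks. Deviations of same-numbered libraries from their group means correlated at 0.30, 0.29 and 0.49 between the CKD groups. In pairs with a sham library the correlations ran from -0.39 to 0.22. The numbers were therefore treated as pairs in CKD only, from the data and not the design. Library 3 stood apart in both CKD groups, which by itself can raise the correlations between them. Differently numbered libraries were not compared, so these values cannot show a pairing. Library totals bound the precision of low genes, and a count of 0 allows up to 3 reads, which is 0.0777 to 0.119 CPM, for counting error only. The methods were tested on simulated counts in which no library stood apart, so that test does not cover the uneven libraries seen here.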

Additional observations from a re-analysis of the deposited data

Results flagged for a closer look

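In 5 genes named by their p, the JV001 and saline libraries stood apart in opposite directions in CKD and in sham, a difference that edgeR's quasi-likelihood test of the interaction did not pass (adjusted p 0.84 each). Their interactions were -1.59 for Lgals4, 3.47 for Xpnpep2, 1.90 for Exoc3l4, 0.74 for Sulf2 and 0.67 for Prmt2, on the log2 scale. In all genes the share with such crossing pairs was 0.340%. Each of the 5 kept its direction with any 1 library left out, with ranges of -1.85 to -1.33 for Lgals4, 2.89 to 3.73 for Xpnpep2, 1.66 to 2.20 for Exoc3l4, 0.64 to 0.89 for Sulf2 and 0.57 to 0.73 for Prmt2. Choosing genes by a small p favours both crossing pairs and a stable direction, so these values are a description.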

How the results depend on the processing

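The count of genes passing the adjusted threshold was 0 as reported, with every single library left out, with library 3 of both CKD groups left out and with RLE scaling, both other filters, robust spread, FPKM values and mitochondrial and haemoglobin genes left out. It was 2 with DESeq2, 20 with limma voom and library weights, 11 without library 3 of every group and 272 without sham saline library 1 and library 3 of both CKD groups, the last with fewer and less variable samples by construction. At an unadjusted p under 0.05 the count of 567 was 857 with no filter, 2876 with limma voom, 2945 without library 3 of both CKD groups, 2866 without library 3 of every group and 2750 without sham saline library 1 and library 3 of both CKD groups. With 1 library left out it ran from 328 (without CKD saline library 2) to 2789 (without CKD saline library 3), and was 338 without CKD saline library 1 and 329 without sham saline library 1. Beyond what the left-out samples show, the cause was not tested.

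Genes crossing in both pairs numbered 51 as reported, 287 without library 3 of both CKD groups, where 2 against 2 libraries separate more easily, and 19 among genes of at least 10 CPM. Of the values of single genes named, 1934 kept their direction and side of the threshold, 59 passed it and 17 reversed, the last all in shelterin genes. Terf1 reversed to -0.15 without CKD JV001 library 3 (highest 0.76), Terf2 to -0.06 without sham JV001 library 2 and -0.0044 without sham saline library 3 (highest 0.12), and Pot1b to -0.05 without sham saline library 1 (highest 0.63). Acd reversed to -0.06, -0.01 and -0.04 without CKD saline library 1, CKD saline library 2 or sham JV001 library 2 (highest 0.42). Tinf2 reversed to 0.05, 0.03 and 0.06 without CKD saline library 2, sham JV001 library 2 or sham saline library 2 (lowest -0.19), to 0.02 with limma voom, to 0.12 and 0.14 on log2(FPKM + 1) and log2(FPKM + 0.1), and to 0.0013 without sham saline library 1 and library 3 of both CKD groups. Pot1a reversed to 0.01 on both FPKM scales and to 0.10 without library 3 of every group. Lists were counted without the adipocyte and sex-linked lists, which had 4 tested members each. Of the others, 22 had a positive median, and 16 to 28 did over the settings. With the replicate block 0 genes were called, 454 had an unadjusted p under 0.05 and 23 lists were positive. A replicate block in CKD only, added after seeing the data, called 0 genes in the interaction, with 2272 at an unadjusted p under 0.05 and 23 lists positive, and 3164 genes for JV001 in CKD, against 0 without it.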

Other observations

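Among genes crossing in both pairs but not chosen by p, Plac8 had an interaction of 3.95, Tspo, the outer mitochondrial membrane translocator protein, 0.75, and Polr2a, the largest subunit of RNA polymerase II, 0.69, while Mms22l, a replication repair factor, had -3.54 at a mean of only 0.429 CPM, Abhd18 -1.40 and Fen1, the flap endonuclease of DNA replication, -0.88. They were picked after their values were seen, and none passed edgeR's adjusted test with all 12 libraries. Without sham saline library 1 and library 3 of both CKD groups, edgeR called Abhd18 (adjusted p 0.00516), Polr2a (0.0285), Tspo (0.0408) and Plac8 (0.0492), and limma voom with all libraries called Abhd18 (adjusted p 0.0338).

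Autophagy and mitophagy genes had a median of -0.29 with 19 of 23 negative (-0.13, with 7 positive, without CKD JV001 library 3), among them Dnm1l, the GTPase of mitochondrial fission, at -0.69 (SE 0.27) and Bnip3, a mitophagy receptor, at -0.80 (SE 0.33). Dnm1l had 60.5, 59.1 and 41.0 CPM in CKD JV001 and 85.1, 91.9 and 62.6 CPM in CKD saline, against 98.7, 95.9 and 99.2 CPM in sham JV001 and 77.5, 98.1 and 95.9 CPM in sham saline. Its CKD groups stood apart and its sham groups overlapped. Cx3cr1, a receptor of resident macrophages, had 3.04, 3.63 and 1.38 CPM in CKD JV001 and 0.222, 0.363 and 2.15 CPM in CKD saline, with 0.371, 0.14 and 0.151 CPM in sham JV001 and 1.54, 0.61 and 0.311 CPM in sham saline, and an interaction of 3.44 (SE 1.25). The mitochondrially encoded genes differed among themselves from -1.49 to 0.36, with 10 of 13 negative and a median of -0.28. Their median JV001 log2 fold change was -0.07 in CKD and 0.21 in sham. The median interaction was -0.70 without sham saline library 1 and -0.14 without sham saline library 2. The cell cycle list had 16 of 32 positive with all libraries, against 7 (median -0.56) without CKD JV001 library 3, 6 (median -0.49) without library 3 of both CKD groups and 10 with limma voom.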
